A study of Mus musculus with 15 samples.

Results

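Immediate-early genes are transcribed within minutes of a signal at the cell surface, without new protein synthesis, and many of their transcripts are short-lived. In a B-cell, antigen binding to the B-cell receptor activates the kinases Lyn and Syk and then Bruton's tyrosine kinase (Btk), and phospholipase Cγ2 next raises calcium and diacylglycerol, which lead to calcineurin and, through Ras, to the kinase ERK. ERK and calcium act on transcription factors such as SRF with its ternary complex partners, CREB and Mef2 that are already bound near the starts of these genes. The 10 genes of this class examined were the zinc finger factors Egr1, Egr2 and Egr3, the orphan nuclear receptor Nr4a1, the AP-1 subunits Fos, Fosb, Jun and Junb, the phosphatase Dusp2 and the growth regulator Myc. They were taken by gene symbol from the deposited expression tables, and all 10 were found among 16470 genes in the DMSO table and among 16428 genes in the ibrutinib table.

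RNA was sequenced from malignant splenic B-cells of 2 mouse genotypes. Eμ-TCL1 mice carry the TCL1 oncogene under the Eμ enhancer, which drives it in B-cells, and develop a disease like chronic lymphocytic leukemia (CLL). Eμ-TCL1;p53R172H/+ mice carry in addition one mutant copy of Trp53, the R172H allele, beside one wild-type copy, so that all 15 libraries share the TCL1 transgene, and the mice were on a C57Bl/6 background after 5 generations of backcrossing. Cells were cultured for 24 h with the vehicle DMSO, giving 3 Eμ-TCL1 libraries (replicates 2, 3 and 4) and 5 Eμ-TCL1;p53R172H/+ libraries (replicates 1 to 5), or with ibrutinib, a covalent inhibitor of Btk, at 5 μM, giving 3 Eμ-TCL1 libraries (replicates 1, 3 and 4) and 4 Eμ-TCL1;p53R172H/+ libraries (replicates 1, 3, 4 and 5). The age of the mice and the mouse behind each library were not given in the sources used here, so p-values measure the spread between these libraries. Values are CPM, read counts per gene scaled to a common effective library size, set by the authors within each table and rounded to 0.1. Eμ-TCL1;p53R172H/+ is also called the mutant.

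Several libraries did not have the marker profile of B-cells. Replicates 1 and 2 of Eμ-TCL1;p53R172H/+ in DMSO and replicate 1 of the same genotype in ibrutinib had Cd79a, a B-cell receptor subunit that marks B-cells, at 12.8, 13.2 and 4.6, and Cd3e, which defines T-cells, at 113.5, 282.9 and 82. Replicate 2 of Eμ-TCL1 in DMSO and replicate 1 of Eμ-TCL1 in ibrutinib had Cd79a at 37.9 and 42.7, with the myeloid gene Lyz2 at 7931.4 and 5895.8. The other 10 libraries had Cd79a from 81.1 to 421.5 and are called Cd79a-rich below; the lowest of them, replicate 3 of Eμ-TCL1;p53R172H/+ in ibrutinib, also had Cd3e at 96. All 9 B-cell markers examined were found, and their summed level ran from 477.1 to 5298.9 in Eμ-TCL1 and from 231.9 to 3891.6 in Eμ-TCL1;p53R172H/+ in DMSO, and from 385.1 to 2625.4 and from 56.6 to 1216.3 in ibrutinib. All 12 T-cell markers were found, with sums of 290.3 to 736.2 and 294.1 to 3825.7 in DMSO and of 234.4 to 719.2 and 785.7 to 2306.9 in ibrutinib. Of 12 myeloid markers 11 were found, with sums of 151.6 to 29443.4 and 53.1 to 205 in DMSO and of 276.5 to 20913.4 and 33.1 to 1193.7 in ibrutinib. The 7 erythroid markers found of 9 reached 17886.6 and 15474.6 in the same myeloid-rich libraries and at most 264 elsewhere, and the 5 natural killer cell markers reached 358 in the Cd3e-high libraries and at most 47 in Eμ-TCL1. No B-cell or T-cell marker was at 0 in any library, and 1 or 2 of the myeloid markers, never Lyz2, were at 0 in 7 libraries. Every Eμ-TCL1 library had Xist and no Ddx3y above 0, as in females, whereas Eμ-TCL1;p53R172H/+ held libraries of both sexes. Trp53 ranged from 26 to 52.3 in Eμ-TCL1 and from 52.1 to 67 in Eμ-TCL1;p53R172H/+ in DMSO, which does not test the labels, since R172H is a substitution and no allele was read. In such bulk samples, fewer cells of a type and less RNA per cell cannot be told apart.

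To show the sequence next to these genes, where factors of the receptor pathway can bind, the bases just before the transcription start of 4 members with matched windows are printed 5′ to 3′ on the plus strand of GRCm38 (RefSeq), with the matches named here for each stretch in capitals. Of the 10 members, 7 had a RefSeq promoter window: Egr2, with 5 windows (the third by position is printed), and Fos, Fosb, Jun, Junb, Nr4a1 and Dusp2, with 1 each. None of the printed bases lies in an exon of the gene it precedes. The Egr2 and Nr4a1 stretches lie inside the annotated span of their genes, before a start downstream of the first one, and those of Dusp2 and Fos end at the base before the gene. The Egr2 stretch (chr10:67537754-67537868) shows a CArG box, the site of SRF, and 2 copies of TGACG, the core of the CREB site, 1 on each strand. The Nr4a1 stretch (chr15:101266736-101266845) and the Dusp2 stretch (chr2:127336049-127336158) show the shared run CCTTGTATGG, and that of Nr4a1 also 2 copies of TGCGTCA. The Fos stretch (chr12:85473780-85473889) shows 1 copy of TGACG.
Egr2: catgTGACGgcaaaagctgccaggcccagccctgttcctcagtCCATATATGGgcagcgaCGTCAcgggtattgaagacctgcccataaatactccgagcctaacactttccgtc
Nr4a1: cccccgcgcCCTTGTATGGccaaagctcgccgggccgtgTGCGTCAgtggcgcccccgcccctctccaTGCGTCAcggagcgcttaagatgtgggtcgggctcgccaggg
Dusp2: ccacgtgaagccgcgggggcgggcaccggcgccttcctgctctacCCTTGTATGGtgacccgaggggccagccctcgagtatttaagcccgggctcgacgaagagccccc
Fos: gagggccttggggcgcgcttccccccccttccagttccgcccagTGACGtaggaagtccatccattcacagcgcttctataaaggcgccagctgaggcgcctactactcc

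The CArG box CCATATATGG of Egr2 began at base -72 from the transcription start of that window. A CArG box was found on either strand in 535 of 32851 promoter windows of the same length across the genome (1.63%), and among the matched members only in windows of Egr2. A window covers only bases close to the start, such as chr12:85473640-85473939 for Fos, so sites further upstream were not searched. CCTTGTATGG began at base -101 in Nr4a1 and at base -65 in Dusp2, and was found in 11 of the 32851 windows (0.0335%). It was 1 of 21 runs of 10 bases shared by windows of different members, most of them rich in G and C, and was chosen after the sequences were seen, so its rarity is a description. TGACG, which is short and contained in TGACGTCA, was found in 20.8% of windows, and it was present in the windows of Egr2, Fos, Fosb, Junb, Nr4a1 and, just past its start, Dusp2. TGCGTCA, whose last 5 letters are the reverse complement of TGACG, was found 4 times in the Nr4a1 window, once in that of Fosb and in 2.12% of all windows. GCGNGGGCG, the site of the Egr factors, was found in the windows of Dusp2, Fosb and Nr4a1, with those of Dusp2 and Nr4a1 in the printed stretches in lower case, and in 5.55% of all windows, TGANTCA, the AP-1 site, in no member window and in 7.81% of all windows, and the whole TGACGTCA in no member window and in 1.79%. A match is a run of letters and no measured binding site.

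Levels of the 10 genes differed widely on a scale of median CPM per kilobase of exon. In Eμ-TCL1;p53R172H/+ cells in DMSO, Myc stood highest at 60.8, followed by Junb at 40.5, Egr2 at 29.0, Dusp2 at 22.7, Nr4a1 at 17.7, Egr1 at 13.6 and Egr3 at 10.4. Jun at 7.18, Fos at 0.638 and Fosb at 0.0961 came last. In Eμ-TCL1 cells in DMSO the order began with Junb at 37.2, Myc at 27.0, Jun at 10.1 and Dusp2 at 9.74, with Egr1 at 2.03, Egr2 at 2.001 and Egr3 at 0.545. In both ibrutinib groups Junb led, at 20.1 in Eμ-TCL1 and 32.2 in the mutant, and Egr3 was last, at 0.0227 and 0.0908. The library ranges of all 9 neighbouring pairs in this order overlapped in the mutant in DMSO. In the other groups Junb lay wholly above Myc, at 31.6 to 49.7 against 6.33 to 28.7 in Eμ-TCL1 in DMSO, and in that group Dusp2 lay wholly above Nr4a1, while all other neighbours overlapped.

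**Figure D1:**
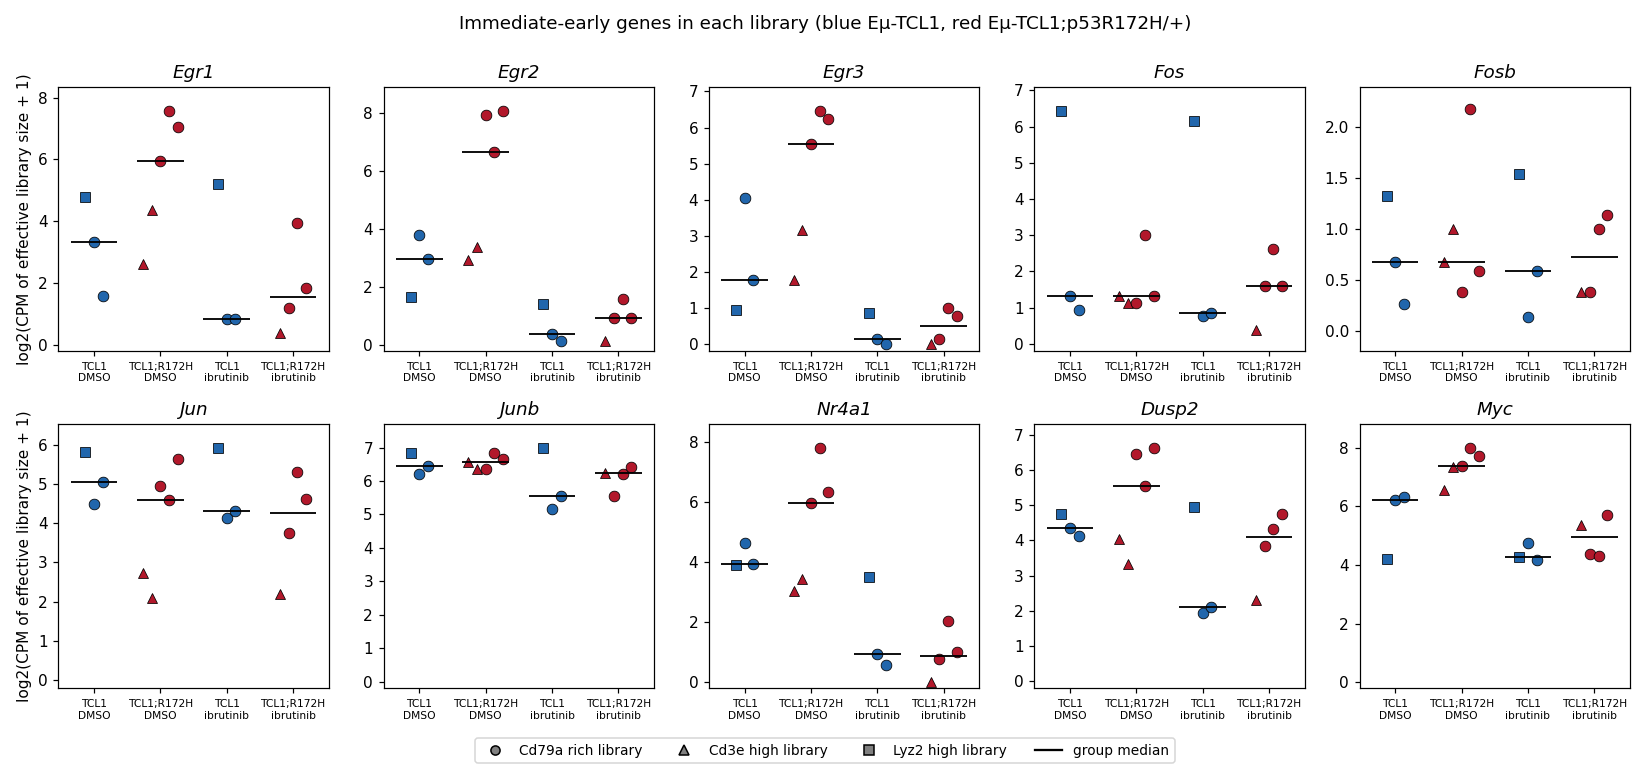
Each panel plots 1 gene as log2(CPM of the effective library size + 1) in every library (points) with the group median (line), for Eμ-TCL1 (TCL1, blue) and Eμ-TCL1;p53R172H/+ (TCL1;R172H, red) in DMSO and ibrutinib. Circles are Cd79a-rich libraries, triangles libraries high in Cd3e and squares libraries high in Lyz2; Egr2, Egr3 and Nr4a1 lie at or under 3.1 CPM in all ibrutinib libraries but the Nr4a1 square, and the Fos points near 6 are both squares.

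The question of the first comparison was whether p53-mutant leukemia cells differ from Eμ-TCL1 cells in these genes in DMSO. The Egr family showed its highest values in 3 Eμ-TCL1;p53R172H/+ libraries. Egr1 (ENSMUSG00000038418), an activator that also induces its own corepressors, was at 26.4, 9.1 and 2 CPM in Eμ-TCL1 replicates 2, 3 and 4 and at 5.1, 19.8, 61, 189.5 and 130.6 in the mutant replicates 1 to 5. Replicates 3, 4 and 5 of the mutant exceeded every Eμ-TCL1 library, and replicates 1 and 2 lay within the range of Eμ-TCL1. Egr2 (ENSMUSG00000037868, chr10:67535475-67542188) was at 2.2, 13 and 6.8 in Eμ-TCL1 and at 6.7, 9.5, 241.5, 98.6 and 268.3 in the mutant. Egr3 (ENSMUSG00000033730, chr14:70077203-70082614) was at 0.9, 15.6 and 2.4 in Eμ-TCL1 and at 2.4, 7.9, 45.9, 87.6 and 74.6 in the mutant. Egr2 and Egr3, which act in the anergy and tolerance of lymphocytes, thus showed the same division of the mutant group, with replicates 1 and 2 inside the Eμ-TCL1 range.

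As means, Egr2 was at 124.9 ± 124.6 CPM (SD, n = 5) in Eμ-TCL1;p53R172H/+ and at 7.33 ± 5.42 (SD, n = 3) in Eμ-TCL1. Its difference was 2.98 ± 1.31 (SE) on the log2(CPM + 1) scale, with an adjusted p of 0.613 by limma. Egr3 differed by 2.39 ± 1.21 on the same scale, with an adjusted p of 0.636 by limma, and Egr1 by 2.28 ± 1.18, with an adjusted p of 0.639 and a difference of 1.45 without Eμ-TCL1 replicate 4. None of the 3 passed the threshold of 0.05, and the spread of the mutant libraries was about as large as their mean.

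Nr4a1 (ENSMUSG00000023034, chr15:101254269-101274795), also called Nur77 and used as a reporter of antigen receptor signaling, was at 13.9, 23.9 and 14.4 CPM in Eμ-TCL1 and at 7.2, 9.8, 62.2, 223.6 and 80.6 in the mutant. Dusp2 (ENSMUSG00000027368, chr2:127336159-127338376), a nuclear phosphatase that acts on kinases of the ERK family, was at 26, 19.5 and 16.4 in Eμ-TCL1 and at 15.4, 9.1, 86.9, 45.5 and 98 in the mutant. Both genes had replicates 1 and 2 of the mutant below every Eμ-TCL1 library and replicates 3, 4 and 5 above every one. The log2 difference was 1.16 ± 1.04 (SE) for Nr4a1, with an adjusted p of 0.707 by limma, and 0.79 ± 0.76 for Dusp2, with an adjusted p of 0.723. Without mutant replicate 4 the Nr4a1 difference was 0.54, and that of Dusp2 was 0.47 without mutant replicate 3, 0.43 without replicate 5 and 1.25 without replicate 2.

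Myc was the 1 member whose groups did not overlap in DMSO. Myc (ENSMUSG00000022346, chr15:61985391-61990374), a factor that drives ribosome production and cell growth, was at 17.2, 73.4 and 77.9 CPM in Eμ-TCL1 and at 92.2, 161.8, 165.2, 253 and 207.1 in the mutant. Every mutant library, those low in Cd79a included, lay above every Eμ-TCL1 library, as was the case for 3.52% of all genes, and no member was wholly below, as 2.93% of all genes were. The means were 56.2 ± 33.8 (SD, n = 3) and 175.9 ± 59.7 (SD, n = 5), a ratio of 3.13. The log2 difference of 1.82 ± 0.53 (SE) had a p of 0.00788 before adjustment and 0.473 after it by limma, and the two-sided exact permutation p of the means was 0.0357, the smallest possible with 3 against 5 libraries. The lowest Myc level belonged to the myeloid-rich library of Eμ-TCL1; without it the log2 difference was 1.13, the smallest of the 8 values with a library left out. Whether other cells had a part in it was not tested.

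The AP-1 subunits followed another pattern. Fos (ENSMUSG00000021250, chr12:85473890-85477273) was at 86.1, 1.5 and 0.9 CPM in Eμ-TCL1 and at 1.5, 1.2, 1.2, 7 and 1.5 in the mutant. The single high value was that of the library with Lyz2 at 7931.4, and the log2 difference of -1.31 ± 1.19 (SE; adjusted p = 0.707 by limma) was 0.46 without that library. Fosb (ENSMUSG00000003545, chr7:19302696-19310051), a relative of Fos, was near the floor of the table, at 1.5, 0.6 and 0.2 in Eμ-TCL1 and at 0.6, 1, 0.3, 3.5 and 0.5 in the mutant. Jun (ENSMUSG00000052684, chr4:95049034-95052222), the partner of Fos in the AP-1 dimer, was at 55.2, 21.6 and 32.1 in Eμ-TCL1 and at 5.6, 3.3, 29.7, 22.9 and 48.3 in the mutant. The low Jun values belonged to the Cd3e-high replicates 1 and 2, and its log2 difference of -1.13 ± 0.81 (SE; adjusted p = 0.657 by limma) was 0.27 in Cd79a-rich libraries. Junb (ENSMUSG00000052837, chr8:84974484-84978718), an AP-1 subunit that can restrain Jun, was the steadiest member, at 114.3, 72.6 and 85.7 in Eμ-TCL1 and at 93.1, 80.8, 80.2, 114.3 and 100.3 in the mutant, with a log2 difference of 0.06 ± 0.22 (SE; adjusted p = 0.939 by limma).

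**Figure D2:**
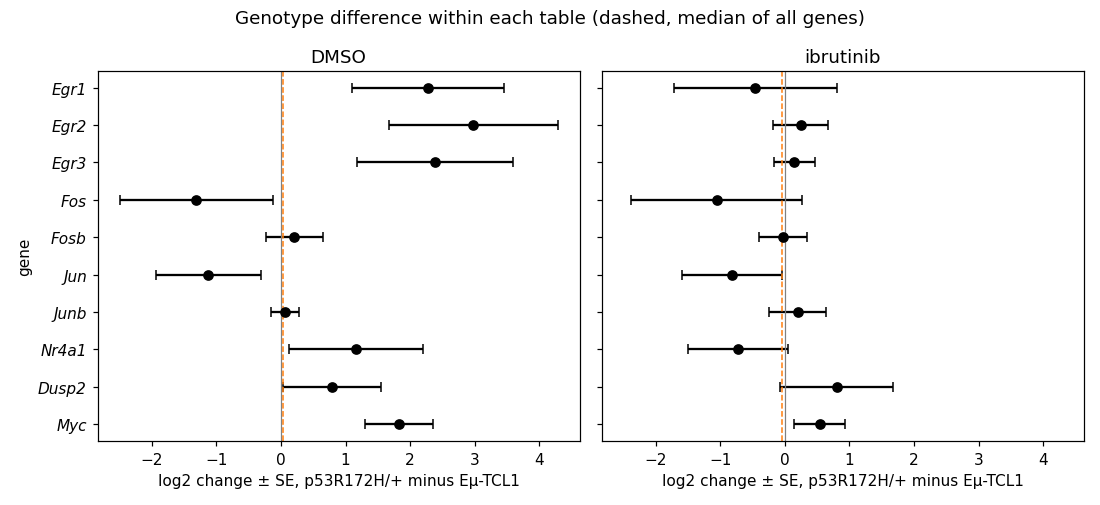
Log2 change (x axis) of each gene (y axis), Eμ-TCL1;p53R172H/+ minus Eμ-TCL1, in the DMSO and the ibrutinib table. Points are limma estimates on log2(CPM + 1), bars are ± 1 standard error and the dashed line is the median of all genes; Egr1, Egr2, Egr3 and Myc lie from 1.82 to 2.98 in DMSO and from -0.46 to 0.54 in ibrutinib.

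Across the 10 genes, 0 passed an adjusted p of 0.05 between genotypes in DMSO by limma, where 0.0121% of all genes did, and 1 had an unadjusted p under 0.05, where 8.17% of all genes did. The differences were positive for 8 members and negative for 2, with a median of 0.98, beside a median of 0.04 and 53.3% positive over all genes. Exact permutation tests of the other 9 members gave p from 0.179 to 0.893. With sample quality weights, which count aberrant libraries less, limma called 803 of 16470 genes, Egr1, Egr2 and Myc among them. Their log2 differences were 4.11, 4.01 and 1.28, with adjusted p of 0.0230, 0.0323 and 0.0294 by limma. No other fit of the DMSO table called a member.

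Within the Cd79a-rich libraries, 2 of Eμ-TCL1 and 3 of Eμ-TCL1;p53R172H/+, the division was sharper. Every mutant library lay above both Eμ-TCL1 libraries in 6 of the 10 members, Egr1, Egr2, Egr3, Nr4a1, Dusp2 and Myc, where 16.5% of all genes did. No member lay wholly below, where 16.2% of all genes did. Egr2 had means of 202.8 ± 91.2 (SD, n = 3) and 9.90 ± 4.38 (SD, n = 2), Egr1 of 127.0 ± 64.3 and 5.55 ± 5.02, Nr4a1 of 122.1 ± 88.4 and 19.2 ± 6.72, and Myc of 208.4 ± 43.9 and 75.7 ± 3.18. The same 6 members were separated among the female libraries of DMSO, where 21% of all genes were, and these subsets share libraries. With 3 against 2 libraries an exact permutation p cannot go below 0.2, and this subset was chosen after marker levels and earlier results were seen. B-cell marker sums were 2814.9 to 3891.6 in its mutant libraries and 4100.6 and 5298.9 in its Eμ-TCL1 libraries, and their part was not tested.

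The second comparison asked whether the genotypes differ in ibrutinib, and most of the 10 genes were low in both. Egr2 was at 1.7, 0.3 and 0.1 CPM in Eμ-TCL1 replicates 1, 3 and 4 and at 0.1, 0.9, 2 and 0.9 in the mutant replicates 1, 3, 4 and 5. Egr3 was at 0.8, 0.1 and 0 and at 0, 0.1, 1 and 0.7, respectively. Both genes lay at or under 2 in all 7 libraries, within 20 steps of the rounding, so that ratios between them are coarse. Egr1 was at 35.7, 0.8 and 0.8 in Eμ-TCL1 and at 0.3, 1.3, 14.2 and 2.6 in the mutant, and Nr4a1 at 10.3, 0.9 and 0.5 and at 0, 0.7, 3.1 and 1. For both, the myeloid-rich Eμ-TCL1 replicate 1 was far above its group and replicate 4 was the highest of the mutant.

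Fos had a like pattern in ibrutinib, at 70.7, 0.7 and 0.8 CPM in Eμ-TCL1 and at 0.3, 2, 5.1 and 2 in the mutant. Fosb was at 1.9, 0.1 and 0.5 and at 0.3, 0.3, 1 and 1.2, Jun at 59.6, 16.6 and 19 and at 3.6, 12.5, 38.2 and 23.7, and Junb at 126.3, 34.8 and 46.2 and at 74.8, 45.5, 73.2 and 84.3. All 4 AP-1 genes were highest in the myeloid-rich library. Dusp2 was at 30, 2.8 and 3.3 in Eμ-TCL1 and at 3.9, 13.2, 18.9 and 25.9 in the mutant, with the 3 Cd79a-rich mutant libraries above both Cd79a-rich Eμ-TCL1 libraries. Myc was at 18.4, 26 and 17 and at 40.5, 19.5, 19 and 50.8, so that its groups, apart in DMSO, overlapped.

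By limma, 0 of the 10 members passed between genotypes in ibrutinib, where 0% of all genes did, and 0 had an unadjusted p under 0.05, where 12% of all genes did. Differences were positive for 5 members, where 45.6% of all genes were, with a median of 0.06 beside -0.05 over all genes. No member had its groups apart, where the mutant lay wholly above for 6.68% of all genes and wholly below for 5.97%, and exact permutation p ran from 0.286 to 0.914, where the smallest possible, 0.0571, is above 0.05. Myc differed by 0.54 ± 0.39 (SE; adjusted p = 0.580 by limma), Dusp2 by 0.80 ± 0.87 (adjusted p = 0.692) and Egr2 by 0.24 ± 0.42 (adjusted p = 0.813). The negative differences of Egr1 (-0.46), Fos (-1.05) and Nr4a1 (-0.72) were 0.99, 0.73 and 0.19 without Eμ-TCL1 replicate 1. In Cd79a-rich libraries, 4 members, Egr1, Egr2, Fos and Dusp2, had every mutant library above both Eμ-TCL1 libraries, where 15.2% of all genes did. In these Eμ-TCL1 libraries Egr1, Egr2 and Fos lay at or under 0.8 CPM, and an exact permutation p cannot go below 0.2 here. B-cell marker sums were 439 to 1216.3 in these mutant libraries and 2178.2 and 2625.4 in these Eμ-TCL1 libraries. T-cell sums were 785.7 to 1480 and 234.4 and 719.2, and the part of such cell differences was not tested.

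**Figure D3:**
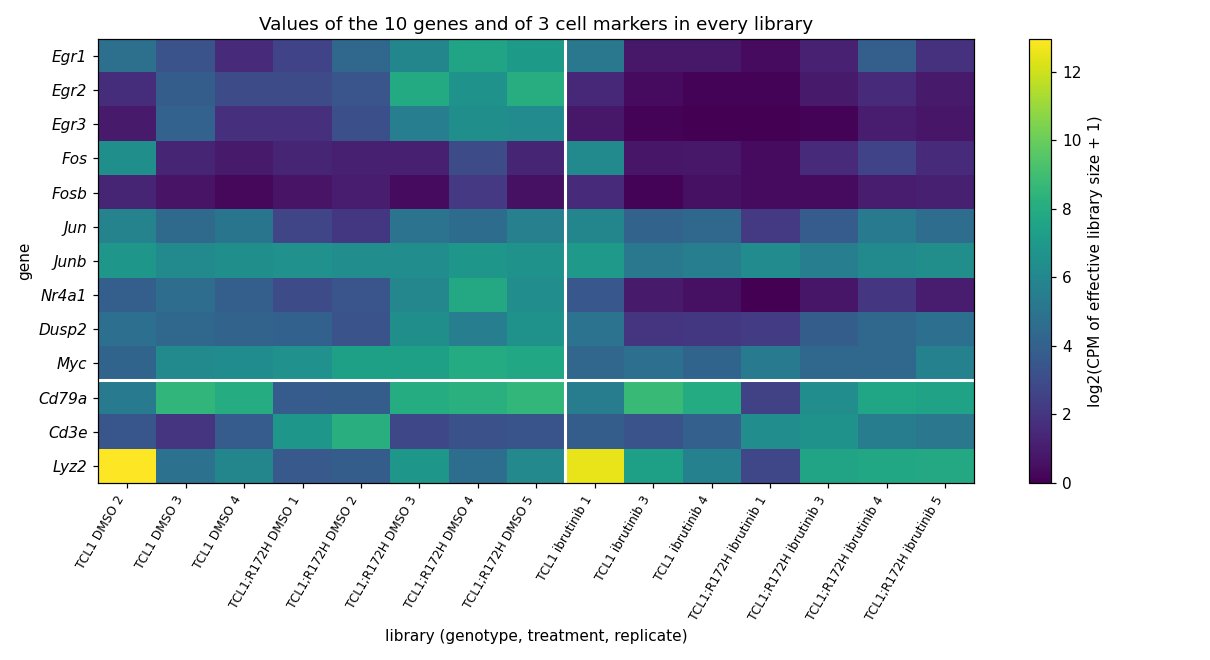
Heat map of the 10 genes and, under the white line, of the B-cell marker Cd79a, the T-cell marker Cd3e and the myeloid marker Lyz2 (rows) in all 15 libraries (columns; TCL1 is Eμ-TCL1 and TCL1;R172H is Eμ-TCL1;p53R172H/+, and the white vertical line parts DMSO from ibrutinib). Color is log2(CPM of the effective library size + 1); the high Egr1, Egr2, Egr3 and Nr4a1 values fall on Eμ-TCL1;p53R172H/+ replicates 3, 4 and 5 in DMSO, which have Cd79a at 262.6 to 380.1.

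The third comparison set ibrutinib beside DMSO in each genotype. The 2 tables were scaled separately, so a difference between them carries a factor common to all genes of a library, and it is described here with no test. As deposited, all 10 members had a lower mean log2(CPM + 1) in ibrutinib in both genotypes, as 73.1% of all genes did in Eμ-TCL1 and 69.5% in the mutant. The median difference of the members was -1.05 in Eμ-TCL1, beside -0.21 over all genes, and -1.93 in the mutant, beside -0.28. The count of lower members was 7 in Eμ-TCL1 without DMSO replicate 2 or without ibrutinib replicate 3, where 64.4% and 70.0% of all genes were lower. It was 7 in the mutant without DMSO replicate 4, where 70.4% of all genes were lower. The median in Eμ-TCL1 was -0.55 without ibrutinib replicate 3, -0.70 without ibrutinib replicate 4 and -2.14 without ibrutinib replicate 1. When all 15 libraries were rescaled together by the median ratio of 13679 genes, the medians over all genes were 0.03 in both genotypes. Then 9 and 8 members were lower, where 46.5% and 46.4% of all genes were, and the members' medians were -0.77 and -1.52. The exceptions were Fosb in Eμ-TCL1, at 0.11, and Fos and Jun in Eμ-TCL1;p53R172H/+, at 0.22 and 0.36. The share of the column sum taken by the mitochondrial ribosomal RNA mt-Rnr2 ran from 3.29% to 20.7% in DMSO and from 4.79% to 34.7% in ibrutinib. The B-cell marker sums given above were lower in ibrutinib at both ends of their ranges in each genotype. The part of either in these differences was not tested.

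Egr2, Egr3 and Nr4a1 had the largest differences of the 10 genes in both genotypes. Egr2 had means of 124.9 CPM in DMSO and 0.975 in ibrutinib in Eμ-TCL1;p53R172H/+, and of 7.33 and 0.700 in Eμ-TCL1, with log2 differences of -4.90 and -2.17. Across both genotypes its lowest DMSO value, 2.2, was above its highest ibrutinib value, 2, as was the case for 2.86% of all genes, but with joint scaling no member was separated in this way, where 0.277% of all genes were. Nr4a1 had log2 differences of -4.37 and -2.49, Egr3 of -4.16 and -1.92, and Egr1 of -3.67 and -0.93, with the mutant given first. At most 0.214% of all genes had a lower difference than Egr2, Egr3 and Nr4a1 in the same genotype and than Egr1 and Myc in the mutant. Myc had means of 175.9 and 32.5 in the mutant and of 56.2 and 20.5 in Eμ-TCL1, with log2 differences of -2.45 and -1.17. Dusp2 had -1.40 and -1.42, close in value. Several of these values moved when 1 library was left out. In Eμ-TCL1, Egr1 ran from -2.38 without ibrutinib replicate 1 to -0.16 without DMSO replicate 2, Egr3 was -1.02 without DMSO replicate 3, and Myc was -1.86 without DMSO replicate 2. Dusp2 was -2.40 in Eμ-TCL1 without ibrutinib replicate 1, -0.88 without ibrutinib replicate 3, and -0.90 in the mutant without ibrutinib replicate 1. On this scale the added 1 understates the change of genes with low values.

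**Figure D4:**
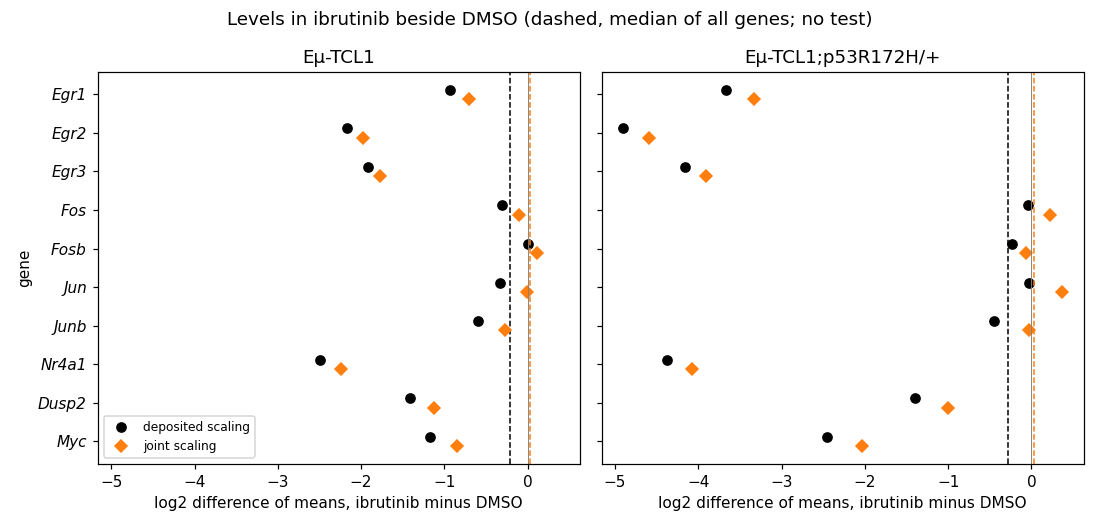
Difference of mean log2(CPM + 1), ibrutinib minus DMSO (x axis), for each gene (y axis) in Eμ-TCL1 and Eμ-TCL1;p53R172H/+, with the deposited scaling (black circles) and with all libraries scaled together (orange diamonds). Dashed lines are the medians of all genes in the same color; Egr2, Egr3 and Nr4a1 lie beyond -1.7 under both scalings in both genotypes, whereas Fos, Fosb and Jun lie within 0.4 of 0.

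Every DMSO library lay above every ibrutinib library for Egr2, Egr3 and Nr4a1 in Eμ-TCL1, where 12.3% of all genes did, and for Egr2, Egr3, Nr4a1 and Myc in Eμ-TCL1;p53R172H/+, where 18.6% did. With joint scaling these were 2 members in Eμ-TCL1, Egr2 and Nr4a1, where 3.65% of all genes were separated, and the same 4 in Eμ-TCL1;p53R172H/+, where 4.69% were. In Cd79a-rich libraries, 9 members of Eμ-TCL1 and 6 of the mutant were separated, where 41.5% and 36.4% of all genes were, and 7 and 6 with joint scaling, where 22.7% and 21.4% were. Marker levels moved with treatment inside this subset. In the mutant the B-cell marker sums were 2814.9 to 3891.6 in DMSO and 439 to 1216.3 in ibrutinib, and the T-cell sums 294.1 to 332.4 and 785.7 to 1480. In Eμ-TCL1 the B-cell sums were 4100.6 and 5298.9 in DMSO and 2178.2 and 2625.4 in ibrutinib, and their part in these counts was not tested. With both genotypes together, Egr2, Egr3, Nr4a1 and Myc were separated under either scaling, where 21.5% of all genes were as deposited and 9.29% with joint scaling. Myc lay from 73.4 to 253 in these DMSO libraries and from 17 to 50.8 in these ibrutinib libraries. The separation of Egr2, Egr3 and Nr4a1 in Eμ-TCL1;p53R172H/+ over all its libraries, given above, includes the Cd3e-high ones. In the Cd3e-high libraries of DMSO, Btk was at 3.6 and 4.2, Egr2 at 6.7 and 9.5 and Nr4a1 at 7.2 and 9.8. In that of ibrutinib Btk was at 1.4, Egr2 at 0.1 and Nr4a1 at 0. The part of Btk or of cell type in these values was not tested.

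A ratio of 2 genes within a library does not depend on the scaling. Junb was taken as the divisor after its small spread was seen. The ratio of Egr2 to Junb ran from 0.0720 to 3.01 in Eμ-TCL1;p53R172H/+ in DMSO and from 0.00134 to 0.0273 in ibrutinib, and from 0.0192 to 0.179 and from 0.00216 to 0.0135 in Eμ-TCL1. The ratio of Nr4a1 to Junb ran from 0.0773 to 1.96 and from 0 to 0.0423 in the mutant, and from 0.122 to 0.329 and from 0.0108 to 0.0816 in Eμ-TCL1. Neither gene overlapped between treatments on this ratio in either genotype. The share of all genes without overlap on a ratio to Junb was not counted, so this is a description. The ratio of Myc to Junb ran from 0.990 to 2.21 and from 0.260 to 0.603 in the mutant without overlap, and from 0.15 to 1.01 and from 0.146 to 0.747 in Eμ-TCL1 with overlap. The ratio of Jun to Junb overlapped in both genotypes, at 0.0408 to 0.482 and 0.0481 to 0.522 in the mutant and at 0.298 to 0.483 and 0.411 to 0.477 in Eμ-TCL1. These ratios show unequal differences of 2 genes and not that Junb was constant.

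Whether the genotype difference itself differed between treatments was tested as an interaction over all 15 libraries. The factor of each table cancels in it except at low values, where the added 1 weighs. Egr2 and Egr3 lay at or under 2 CPM in all ibrutinib libraries, so their genotype difference there is compressed, which enters their interaction. By limma, 0 of 10 members passed, where 0% of all genes did, and 0 had an unadjusted p under 0.05, where 0.523% of all genes did. The interaction was -2.74 ± 1.87 (SE) on the log2 scale for Egr1, -2.73 ± 1.56 for Egr2, -2.24 ± 1.42 for Egr3, -1.88 ± 1.43 for Nr4a1 and -1.29 ± 0.71 for Myc, with an adjusted p of 1 for each by limma. Without 1 library the interaction of Myc was -0.60 (Eμ-TCL1 DMSO replicate 2), and those of Nr4a1 and Egr1 were -0.97 and -1.29 (Eμ-TCL1 ibrutinib replicate 1). Dusp2, Fos, Fosb, Jun and Junb lay between -0.24 and 0.30, and 4 members were positive, where 40.9% of all genes were. The larger distance between ibrutinib and DMSO in the mutant for the first 5 genes therefore did not pass the test.

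Among themselves the members fell into patterns of unlike spread. After centring log2(CPM + 1) within each table, the SD over the 15 libraries was 1.98 for Egr1, 1.93 for Fos, 1.87 for Egr2 and 1.62 for Egr3, more than for 94.7% of all genes in the case of Egr3. It was 1.45 for Nr4a1, 1.26 for Jun, 1.25 for Dusp2, 0.98 for Myc, 0.57 for Fosb and 0.46 for Junb, the last near the middle of all genes. Likeness was measured as the root mean square difference of these centred profiles, which share libraries and scaling, so it is a description. Among pairs of members the smallest were 0.385 for Fosb and Junb, both of low spread on this scale, 0.629 for Egr2 and Egr3 and 0.880 for Egr3 and Nr4a1. The largest was 2.66 for Egr2 and Fos. Fosb lay at or under 3.5 CPM in all libraries, where the added 1 compresses differences. In CPM its highest value was 17.5 times its lowest in DMSO and 19 times in ibrutinib, against 1.57 and 3.63 for Junb.

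The 2 nearest genes of each member over 15 libraries were named. Candidates had a mean of at least 5 in each table and an SD of at least 0.5. The ibrutinib means of Egr2, Egr3 and Nr4a1 were 0.857, 0.386 and 2.36, so these genes were not candidates. Egr2 and Egr3 were nearer to each other, at 0.629, and Egr1 to Nr4a1, at 0.916, than to any gene named for them here. Egr3 was nearest to Eno3, an enolase, at 0.818, and to Nab2, a corepressor that binds Egr factors, at 0.830. Nab2 ran from 8.2 to 117.2 CPM in DMSO and from 1.9 to 13.1 in ibrutinib. Egr2 was nearest to Fam134b at 0.843, which ran from 53 to 1256.2 in DMSO and from 40.5 to 89 in ibrutinib, and to Eno3 at 0.938. Egr1 was nearest to Man1c1 at 0.942 and Spire1 at 1.01, and Nr4a1 to Mfsd12 at 0.695 and to the mitochondrial calcium channel gene Mcu at 0.784. Fos was nearest to Slc22a15 at 0.452 and to Tbxas1, the thromboxane synthase, at 0.478, both of which, like Fos, reached at least 38.6 in each table. Jun was nearest to Hist1h2bc at 0.370 and Cdk2 at 0.393, Junb to Ifrd2 at 0.280 and Pgk1 at 0.287, Fosb to Syne2 at 0.368 and Ifrd2 at 0.381, Dusp2 to Rgs10 at 0.435 and Zfp629 at 0.604, and Myc to 2410002F23Rik at 0.410 and Gm5812 at 0.413.

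The surrounding pathway was read from lists of genes chosen with earlier results in view. Of 22 genes from the receptor to ERK and calcium, 0 passed between genotypes in either table by limma, while 0 in DMSO and 3 in ibrutinib had an unadjusted p under 0.05, where 8.17% and 12% of all genes did. Syk, the kinase next to the receptor, had means of 383.7 in Eμ-TCL1;p53R172H/+ and 1131 in Eμ-TCL1 in DMSO (log2 difference -2.28, adjusted p = 0.629 by limma), with ranges of 40 to 675.8 and 579.8 to 1503.3 that overlapped. Map2k1, the kinase of ERK, had means of 44.4 in the mutant and 65.2 in Eμ-TCL1 in ibrutinib (log2 difference -0.53, adjusted p = 0.316 by limma) and of 64.6 and 83.1 in DMSO (-0.36, adjusted p = 0.629). Prkcb, the protein kinase C of the receptor pathway, had means of 142.0 and 298.0 in ibrutinib (-1.17, adjusted p = 0.347 by limma). All 22 had negative interactions, with a median of -0.43 beside -0.07 over all genes, and the list holds Cd79a, low in the 5 libraries described above. The part of such cell differences in the list was not tested. Beside DMSO, 17 of 22 in Eμ-TCL1 and 22 of 22 in the mutant were lower in ibrutinib as deposited, where 73.1% and 69.5% of all genes were. With joint scaling 9 and 17 were lower, where 46.5% and 46.4% of all genes were, with list medians of 0.04 and -0.11.

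Of 10 feedback regulators, which limit ERK or the Egr factors, 0 passed in either table by limma and 2 had an unadjusted p under 0.05 in each, where 8.17% of all genes did in DMSO and 12% in ibrutinib. Dusp5, an ERK phosphatase, had means of 54.2 and 24.5 CPM in Eμ-TCL1;p53R172H/+ and Eμ-TCL1 in DMSO and of 35.7 and 20.1 in ibrutinib, with log2 differences of 1.14 and 0.80 and adjusted p of 0.505 and 0.389 by limma. Spred2, an inhibitor of Ras and Raf signaling, differed by 0.88 and 0.66, with adjusted p of 0.568 and 0.371 by limma. Nab2, among the 2 nearest genes of Egr3 above, had log2 differences between ibrutinib and DMSO of -2.64 in the mutant and -1.70 in Eμ-TCL1 as deposited, the largest of this list. In the list as a whole 6 of 10 were lower in ibrutinib in each genotype, where 73.1% of all genes were in Eμ-TCL1 and 69.5% in the mutant. With joint scaling 5 of 10 were lower in each, where 46.5% and 46.4% of all genes were.

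Of 18 other immediate-early genes, 16 were in the tables, and 0 of them passed in either. In DMSO the mutant mean was above that of Eμ-TCL1 for 8 and below it for 8, with a median of -0.04, beside 0.98 for the 10 members. Ier2, a small nuclear protein of growth-stimulated cells, had means of 57.3 and 32.1 (log2 difference 0.77, adjusted p = 0.592 by limma), and Nr4a3, a relative of Nr4a1, had means of 14.5 and 5.17 (1.21, adjusted p = 0.613). In ibrutinib Klf6 had means of 352.9 and 205.5 (0.78, adjusted p = 0.286 by limma) and Klf10 of 6.23 and 17.2 (-1.12, adjusted p = 0.427). Beside DMSO, 9 and 12 of 16 were lower in ibrutinib as deposited and 7 and 8 with joint scaling, beside all 10 of the members as deposited and 9 and 8 with joint scaling. Over all genes, 73.1% in Eμ-TCL1 and 69.5% in the mutant were lower as deposited, and 46.5% and 46.4% with joint scaling.

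Of 10 factors that act at immediate-early promoters, 0 passed in either table by limma and 2 had an unadjusted p under 0.05 in each, beside the same 8.17% and 12% of all genes. Mef2d, a calcium-responsive factor, was higher in every Eμ-TCL1;p53R172H/+ library, at 116.9 to 279.1 against 74.4 to 96.4 in DMSO and at 109 to 147.9 against 55.5 to 101.3 in ibrutinib, with adjusted p of 0.408 and 0.328 by limma. It was named for its low p, and the mutant lay wholly above for 3.52% of all genes in DMSO and 6.68% in ibrutinib. Mef2a differed by 0.78 in DMSO (adjusted p = 0.594 by limma), and Crem, a relative of CREB, by 0.75 in ibrutinib (adjusted p = 0.351). Of 10 activation genes of lymphocytes, 9 were in the tables and 0 passed. Cd69, an early surface marker of activation, had means of 65.6 and 17.1 in DMSO (1.55, adjusted p = 0.568 by limma). Icam1, an adhesion molecule, had means of 95.3 and 56.9 in DMSO (0.87, adjusted p = 0.608 by limma) and of 48.3 and 32.3 in ibrutinib (0.54, adjusted p = 0.531). Nfkbid, an atypical inhibitor of NF-κB, had means of 24.9 and 32.3 in ibrutinib (-0.35, adjusted p = 0.496 by limma).

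Myc acts with Max, against Mxd proteins and Mnt, on genes of ribosome production and metabolism. Of 8 partners, 0 passed in either table. Mnt, a repressor that competes for Max, was at 43.9 to 61.7 CPM in Eμ-TCL1;p53R172H/+ and at 24.7 to 32.2 in Eμ-TCL1 in DMSO (log2 difference 0.70, adjusted p = 0.451 by limma). In ibrutinib it was at 38.3 to 51.4 and 23.9 to 33.6 (0.59, adjusted p = 0.319 by limma). The mutant lay wholly above in this way for 3.52% of all genes in DMSO and 6.68% in ibrutinib. Mxd3 had means of 1.84 and 6.13 in DMSO (-1.12, adjusted p = 0.624 by limma), and Mxd4 of 49.4 and 93.6 in ibrutinib (-0.87, adjusted p = 0.310).

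Of 15 Myc target genes, 15 were higher in Eμ-TCL1;p53R172H/+ in DMSO, where 53.3% of all genes were, and 6 had an unadjusted p under 0.05, where 3.52% of all genes had one in this direction. None passed an adjusted p of 0.05 by limma, and the median log2 difference was 0.66. Nop56, a nucleolar protein of ribosomal RNA modification, had means of 130.9 and 77.8 CPM (0.81, adjusted p = 0.558 by limma), and Fbl, its partner methyltransferase, of 4.70 and 2.40 (0.74, adjusted p = 0.544). In ibrutinib 12 of 15 were higher in the mutant, where 45.6% of all genes were, with a median of 0.19 beside -0.05 over all genes. An unadjusted p under 0.05 by limma was found for 2 of the 15, where 12% of all genes had one. The lowest p belonged to Pa2g4 (0.44, adjusted p = 0.373 by limma) and Nolc1 (0.50, adjusted p = 0.382). Beside DMSO, all 15 were lower in ibrutinib in both genotypes as deposited, with medians of -0.92 in Eμ-TCL1 and -1.39 in the mutant. Over all genes 73.1% and 69.5% were lower. With joint scaling 14 and 15 were lower, where 46.5% and 46.4% of all genes were, with medians of -0.59 and -0.97. In 3 and 9 of them every DMSO library lay above every ibrutinib library with joint scaling, where 3.65% and 4.69% of all genes did. In ibrutinib the 3 targets lower in the mutant were Srm (-0.29), Odc1 (-0.13) and Nme1 (-0.03), opposite to Myc at 0.54. Target and Myc levels come from the same libraries.

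**Figure D5:**
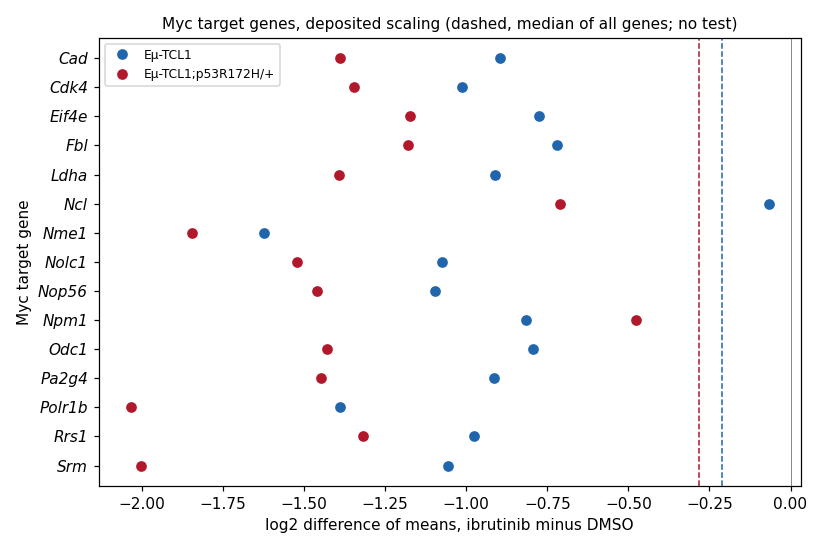
Difference of mean log2(CPM + 1), ibrutinib minus DMSO (x axis), of 15 Myc target genes (y axis) as deposited, in Eμ-TCL1 (blue) and Eμ-TCL1;p53R172H/+ (red). Dashed lines are the medians of all genes, -0.21 and -0.28; all points lie below 0, from -0.07 for Ncl in Eμ-TCL1 to -2.04 for Polr1b in Eμ-TCL1;p53R172H/+.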

How the data were processed

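Each column of the 2 deposited tables was assigned to a genotype, treatment and replicate number from its label. Per the labels and the study's methods, the authors aligned reads with TopHat2 2.0.12, used SAMtools 0.1.19, counted reads per gene with HTSeq on GENCODE M2 (GRCm38), normalized with edgeR and removed genes under 0.5 CPM. Per the file headers and methods, the deposited signal values are CPM of the effective library size, set by the authors per table and rounded to 0.1. A read is worth less than this step, so depth is unknown and no count test or counting interval was possible.

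Genotypes were compared within each table with limma 3.58.1 (lmFit, eBayes with a trend; R 4.3.3) on log2(value + 1) over all genes, and p-values adjusted by Benjamini-Hochberg were called under 0.05. The interaction was fitted over 15869 shared genes. Two-sided exact permutation tests served for single values. The fit was tested on simulated data. Ibrutinib and DMSO levels, scaled apart, were only described, also after joint scaling by median ratios. Exon lengths and gene positions are from GENCODE M21. Alternatives were pseudocounts of 0.1 and 5, a mean of at least 5, a replicate block, quality weights for samples, quantile normalization, each library left out, libraries with other markers left out, only replicate numbers in both treatments, and, added after seeing the data, only libraries with Cd79a of at least 50 and only female libraries. Named were the 10 members, genes of the lists past the threshold, the 2 genes with the lowest p per list and table, and the 2 nearest genes of each member; others were named after their values were seen. Members and lists were chosen with earlier results of these data known, and 2 list genes are not reported here and were left out of the counts and sums of their lists. Figures were drawn with matplotlib 3.10.9.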

Additional observations from a re-analysis of the deposited data

Results flagged for a closer look

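In 3 of 20 sets of 4 or 5 values (10 genes in the 2 Eμ-TCL1;p53R172H/+ groups), 1 library stood apart from the rest by Dixon's criterion on CPM. The criterion flags about 1 in 20 by chance only for independent, normally distributed values. These sets share libraries and CPM was not log-transformed, so the count is a description. All 3 were replicate 4. In ibrutinib, Egr1 was at 14.2 CPM in replicate 4, beside 0.3, 1.3 and 2.6 in the others. In DMSO, Fos was at 7 in replicate 4, beside 1.2 to 1.5, and Fosb at 3.5, beside 0.3 to 1. Replicate 4 also had the highest Nr4a1 of its group in both treatments, 223.6 and 3.1. In that library Lyz2 was at 24.4 in DMSO and 211.5 in ibrutinib, and Cd79a at 300.3 and 193.7. Groups of 3, such as those with the high Fos values of Eμ-TCL1, were not tested in this way.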

How the results depend on the processing

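The count of members called was 0 in DMSO, in ibrutinib and for the interaction under all alternatives but sample quality weights in DMSO, which called 3. That fit called 803 of 16470 genes, against 2 without the weights. The count of members lower in ibrutinib ran from 7 to 10 in each genotype with single libraries left out. The share of all genes that were lower ran from 64.4% to 76.7% in Eμ-TCL1 and from 66.6% to 71.8% in the mutant. Of the single-gene values 732 kept direction and side or, for the untested differences between treatments, moved by less than the SD between libraries, 5 of the latter moved further, 71 genotype differences or interactions changed sign and 3 passed the threshold; the cause of a sign change was not tested. In DMSO, leaving out single libraries gave log2 changes of -2.30 to 0.46 for Fos, -0.094 to 0.49 for Fosb and -0.091 to 0.23 for Junb. Fos was 0.34 with quality weights, 0.57 with only numbers in both treatments and 0.70 in Cd79a-rich libraries. Fosb was -0.27 in female libraries, Jun 0.27 in Cd79a-rich and 0.16 in female libraries, and Junb -0.018 with quantile normalization.

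In ibrutinib, leaving out single libraries gave -1.18 to 0.99 for Egr1, -0.012 to 0.64 for Egr2, -0.027 to 0.41 for Egr3, -1.97 to 0.73 for Fos, -0.34 to 0.36 for Fosb, -0.17 to 0.74 for Junb and -1.26 to 0.19 for Nr4a1. With quality weights Egr1 was 0.96, Fos 0.61, Fosb 0.25 and Nr4a1 0.22. With only numbers in both treatments, which leaves out Eμ-TCL1 replicate 1, they were 0.99, 0.73, 0.36 and 0.19, and in Cd79a-rich libraries 1.48, 1.12, 0.48 and 0.51, with Jun at 0.33. Fosb was 0.15 with a pseudocount of 0.1, 0.091 with quantile normalization and 0.38 in female libraries.

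For the interaction, leaving out single libraries gave -1.51 to 2.05 for Fos, -0.54 to 0.15 for Fosb, -0.17 to 0.89 for Jun, -0.23 to 0.68 for Junb and -0.52 to 0.99 for Dusp2. Without the myeloid-rich DMSO library, Fos was -1.51, Jun -0.045, Junb -0.035 and Dusp2 -0.16. Without the libraries low in B-cell markers, Jun was -0.16 and Dusp2 -0.50. In female libraries Fosb was 0.66, Jun -0.33 and Dusp2 -0.38, and with a pseudocount of 5 Dusp2 was -0.24.

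With the replicate block, Myc differed by 2.002 and Egr2 by 3.17 in DMSO, 0 members were called, and genes called in DMSO went from 2 to 0. With genotype and number together as the replicate block, the interaction was -0.67 for Myc, -2.34 for Egr1, -2.37 for Egr2, -1.69 for Egr3 and -1.31 for Nr4a1, 0 members and 0 genes were called by limma, and 802 genes had an unadjusted p under 0.05, against 83 without it. Same-numbered libraries of the 2 genotypes had deviations that correlated at 0.19, 0.28 and 0.04 in DMSO and at -0.04, -0.19 and -0.17 in ibrutinib, so the numbers do not pair them. Between treatments of a genotype they correlated at 0.75 to 0.83, save Eμ-TCL1;p53R172H/+ replicate 3 at -0.11, whose 2 libraries differ in sex. Because depth is unknown and values are rounded to 0.1, ratios of Egr2, Egr3, Fosb and Nr4a1 in ibrutinib are coarse.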

Other observations

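Some immediate-early and activation genes had the opposite direction to the Egr genes, and these were named after their values were seen. Klf6, a zinc finger factor, ranged from 90 to 382.8 CPM in DMSO and from 175.4 to 418.9 in ibrutinib, and its mean log2(CPM + 1) was higher in ibrutinib by 0.49 in Eμ-TCL1 and, in the mutant, by 1.06. Atf3, a stress-responsive factor of the CREB family, was higher by 1.18 and 0.96, from a range of 0.9 to 65.2 in DMSO to one of 1.2 to 108.2 in ibrutinib. Rgs1, a regulator of G protein signaling, was higher by 0.27 and 1.199. These differences lie across separately scaled tables and were not tested, and over all genes the medians were -0.21 and -0.28.

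Of the activation genes, Cd83 and Nfkbid were among those with the largest differences in the direction of Egr2. Cd83, a surface protein of activated B-cells, ranged from 24 to 581 in DMSO and from 2 to 68.3 in ibrutinib, with log2 differences of -3.09 in the mutant and -1.59 in Eμ-TCL1. Nfkbid ranged from 35.5 to 460.6 and from 22.1 to 36.1, with differences of -2.47 and -1.29. Over all genes the medians were -0.28 in the mutant and -0.21 in Eμ-TCL1. These differences also lie across separately scaled tables and were not tested, and Cd83 was named after its values were seen. The ranges of the B-cell marker sums were lower in ibrutinib as well, and their part was not tested.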
